A study of Mus musculus with 4 samples.

Results

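The cells described here were 251 of 34320 mouse bone marrow cells that carried RNA of T, natural killer (NK) or innate lymphoid cells after a sort for stem and progenitor cells. They were chosen by their own reads. A cell had to show at least 1 unique molecular identifier (UMI, the tag of a single captured RNA molecule) of at least 2 of 7 genes, namely Cd3e, Cd3d, Trbc2, Gata3, Il2rb, Ncr1 and Klrb1c, and no UMI of Ebf1, Gata1 or Cebpe, which mark B lymphoid, erythroid and granulocyte cells. These cells are called gated below, and the 34069 remaining cells are called the other cells.

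The study compared LSK cells, sorted as lineage-negative, Sca-1+ and Kit+ cells, from the bone marrow of mice of WT genotype. One group, Yoda1, was injected intraperitoneally for 2 weeks with Yoda1, a small molecule that opens the mechanically gated ion channel Piezo1, and the other group, Control, received vehicle. Each group had 2 libraries. The labels give no dose, age or sex and do not say how many mice gave each library. A p-value here covers at most how these libraries vary, and that variation can be technical.

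T cells recognise antigen through a receptor of paired alpha and beta or gamma and delta chains, which reaches the surface only with the CD3 chains that pass its signal on. NK cells and the helper-like innate lymphoid cells lack that receptor. They depend on the transcriptional regulator Id2 and share the receptor chain Il2rb or Il7r for cytokines of the IL-2 family. Innate lymphoid precursors arise in the bone marrow through stages that use Tcf7, Gata3, Zbtb16 and Tox, and the beta and gamma receptor loci can be transcribed before or without rearrangement.

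Of 8236 to 10168 barcodes in a library, 7620 to 9756 passed the limits of 500 genes, 1000 UMIs and 10% mitochondrial UMIs and were kept, with 89058521 to 110493533 UMIs in each library. Between 8 and 26 kept barcodes were shared by any pair of libraries, and 0 of them were gated in both. Gated cells were shallower than the other cells in 4 of 4 libraries, with median UMIs of 6033 and 5926 in Yoda1 libraries 1 and 2 and 5594 and 5362 in Control libraries 1 and 2, against 10205, 7314, 11258 and 9460 in the other cells of the same libraries (exact sign-flip test, two-sided p = 0.125, the smallest that 4 libraries allow). The gated sums held 236359 and 766720 UMIs in the Yoda1 libraries and 346367 and 609757 in the Control libraries, so Yoda1 library 1 gave the least precise gene levels. All levels below are in CPM, the UMIs of a gene in every 1000000 UMIs of the same set of cells in the same library. In such sums, fewer cells of a kind and less RNA per cell cannot be told apart.

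The gate was met mostly by pairs of genes. Exactly 2 of the 7 genes were detected in 141 cells and 3 or more in 110, while 2047 other cells had exactly 1. The commonest pattern was Trbc2 with Gata3, in 84 cells, followed by Gata3 with Il2rb in 24 and by Il2rb, Ncr1 and Klrb1c together in 17. Gata3, a transcription factor of T and innate lymphoid cells, was found in 172 gated cells but in 2269 kept cells in all, and Trbc2, a constant region of the receptor beta chain, in 171 gated cells of 471. Il2rb was found in 121 gated cells of 171, the activating receptor gene Ncr1 in 56 of 71, and Klrb1c, which encodes the NK1.1 antigen, in 83 of 253. Cd3e was found in 42 gated cells and 3 other cells, and Cd3d in 54 gated cells of 130.

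Only a minority of gated cells therefore carried a CD3 gene, so the name T cell was borne out by its defining genes in that minority alone. To show where the cells fall, they were split by the gate genes alone. The CD3 subset had a UMI of Cd3e or Cd3d (62 cells). The NK receptor subset had none of those but a UMI of Ncr1 or Klrb1c (67 cells). The third subset held only Trbc2, Gata3 and Il2rb among the gate genes (122 cells).

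Genes that the gate did not use were also common in these cells. Of 76 markers of T, NK and innate lymphoid cells outside the gate, at least 10 were detected in 210 of 251 gated cells (83.7%), in 1.75% of the other cells and in 7.62% of the cells with exactly 1 gate gene. The contrast was smaller for at least 5 markers, detected in 94.0%, 44.4% and 53.6% of the same classes. On either side of the gate's threshold, the share with at least 10 was 71.6% in gated cells with exactly 2 gate genes and 99.1% in those with 3 or more. By subset it was 91.9% in the CD3 subset, 76.1% in the NK receptor subset and 83.6% in the third subset. It varied by library among cells with exactly 2 gate genes, at 80.95% and 53.3% in Yoda1 libraries and 79.3% and 80.4% in Control libraries. The third subset had 86.4% and 63.6% in Yoda1 libraries and 92.9% and 92.3% in Control libraries. Yoda1 library 2 was also lowest in the NK receptor subset (61.1%). In the CD3 subset the lowest was Yoda1 library 1, at 83.3%, against 91.2% in Yoda1 library 2. Tcf7, which encodes the transcription factor TCF-1, stood at 615 and 149.6 CPM in Yoda1 libraries and 558.8 and 628.2 CPM in Control libraries among cells with exactly 2 gate genes. Among cells with exactly 1, just outside the gate, Tcf7 stood at 19.5 and 11.7 CPM in Yoda1 libraries and 38.3 and 67.2 CPM in Control libraries.

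**Figure D1:**
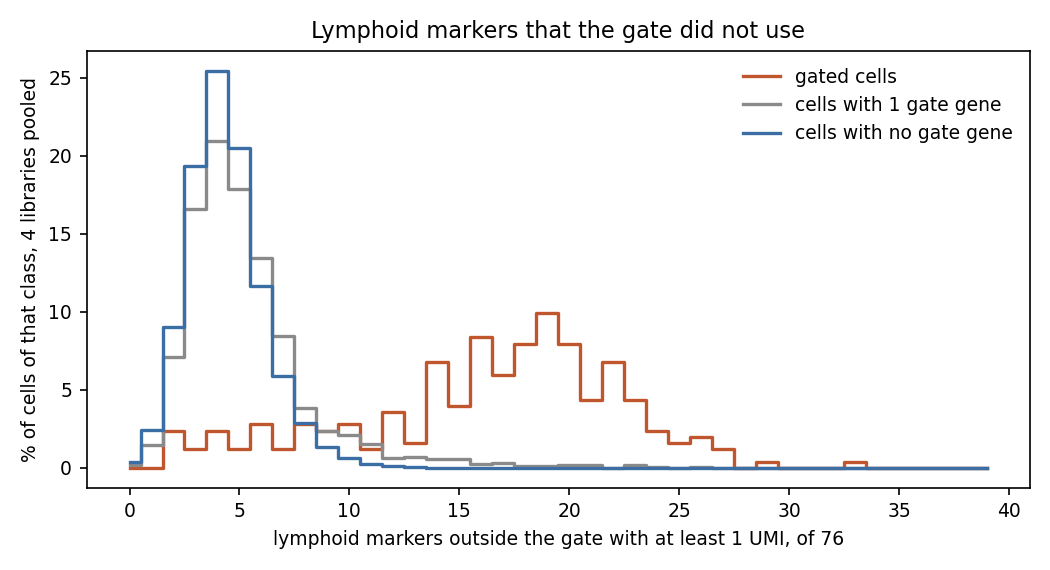
Number of the 76 lymphoid markers outside the gate with at least 1 UMI in a cell (x axis), against the percentage of cells of each class with that number (y axis, 4 libraries pooled), for gated cells, cells with exactly 1 gate gene and cells with no gate gene. Gated cells sit to the right, with 83.7% of them at 10 or more markers.

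Free RNA in the suspension can put a UMI of a gene into a cell that does not express it, so the share of cells with a UMI was also taken in cells that should lack these genes. Cd3e was found in 16.7% of gated cells, in 0 of 6293 neutrophil-primed cells (with Elane and Mpo), which allows a share of up to 0.0477%, and in 0 of 3089 erythroid-primed cells (with Klf1 and Car1), which allows up to 0.0971%. Those limits cover counting error only. Tcf7 was found in 54.6% of gated cells, against 1.21% of neutrophil-primed and 0.809% of erythroid-primed cells. Gata3 was found in 68.5% of gated cells, against 2.53% and 4.92% of the same classes, and Trbc1 in 64.1%, against 1.30% and 1.33%. Of the other gate genes, Ncr1 was lowest (0.0477% and 0.0971% of the same classes) and Trbc2 highest (0.556% and 0.874%). Cd3d was found in 0.397% and 0.227% of these classes and Klrb1c in 0.445% and 0.356%. The rule itself raised the shares of Cd3e, Gata3 and the other gate genes in gated cells, so their contrast is no test of free RNA. Tcf7 and Trbc1 were not used by the gate. Nkg7, a granule gene of cytotoxic cells, gave no such contrast, at 80.9% of gated cells against 93.2% of neutrophil-primed and 68.4% of erythroid-primed cells. The background classes were deeper than the gated cells, with library medians of 17210 to 19571 UMIs in neutrophil-primed and 14898.5 to 18679 UMIs in erythroid-primed cells. Trbc1 and Trbc2 are near-identical, as are Trgc1 and Trgc2 and many Klra genes, so how reads were split within these families is uncertain.

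The CD3 subset is shown first by the genes that define it. Cd3e, Cd3d and Cd3g encode the CD3 epsilon, delta and gamma chains and lie in a single cluster on chromosome 9 (GRCm38), with Cd3g at 44969572 to 44980431 on the minus strand, Cd3d at 44981786 to 44987339 on the plus strand and Cd3e at 44998740 to 45009627 on the minus strand. Cd3d and Cd3g thus start next to each other and run apart. Their promoters are printed from RefSeq (GRCm38.p6), from 250 bases before to 50 bases after each gene's start, because the 3 genes were detected together and only Cd3e and Cd3d were used by the gate. The windows are chr9:45009562-45009861 on the minus strand for Cd3e, chr9:44981536-44981835 on the plus strand for Cd3d and chr9:44980382-44980681 on the minus strand for Cd3g, with capitals marking CACCTG.
Cd3e: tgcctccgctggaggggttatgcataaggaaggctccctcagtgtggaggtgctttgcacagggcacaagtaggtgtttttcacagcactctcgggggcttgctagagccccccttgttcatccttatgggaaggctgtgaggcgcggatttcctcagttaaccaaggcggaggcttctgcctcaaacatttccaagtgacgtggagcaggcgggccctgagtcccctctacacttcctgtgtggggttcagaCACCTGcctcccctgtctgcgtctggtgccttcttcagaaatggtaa
Cd3d: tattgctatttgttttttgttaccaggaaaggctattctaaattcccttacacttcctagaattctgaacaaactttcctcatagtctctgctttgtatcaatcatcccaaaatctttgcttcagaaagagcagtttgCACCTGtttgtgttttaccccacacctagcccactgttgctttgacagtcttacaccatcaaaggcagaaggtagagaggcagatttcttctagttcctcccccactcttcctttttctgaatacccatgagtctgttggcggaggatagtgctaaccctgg
Cd3g: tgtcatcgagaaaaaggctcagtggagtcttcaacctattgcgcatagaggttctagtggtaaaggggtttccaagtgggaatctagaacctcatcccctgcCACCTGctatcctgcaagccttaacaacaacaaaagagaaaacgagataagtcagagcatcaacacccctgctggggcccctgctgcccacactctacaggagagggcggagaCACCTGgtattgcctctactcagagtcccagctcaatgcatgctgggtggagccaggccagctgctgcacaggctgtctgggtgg

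CACCTG, an E-box, was searched on both strands (as CAGGTG on the other) and is in all 3 windows, once each for Cd3e and Cd3d and 2 times for Cd3g, and in 20.2% of 32851 RefSeq promoters of the same length. CTTTGA, the core letters of a TCF/LEF motif, is in the Cd3d window and in 16% of all promoters, and AGATAA, the core letters of a GATA motif, is in the Cd3g window and in 11.2%. TGTGGT, a Runx motif, is in none of the 3 windows and in 16.8% of all promoters. These matches describe letters and not bound sites.

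Cd3g, the CD3 gene that the gate did not use, was found in 49 of the 62 cells of the CD3 subset (79.0%), in 2 of 67 cells of the NK receptor subset and in 6 of 122 cells of the third subset. Its level in the CD3 subset was 464.8 and 562.4 CPM in Yoda1 libraries and 574.5 and 426 CPM in Control libraries, against 0 to 27.6 CPM in the other two subsets. The 4 libraries were close to each other although the subset held only 6 and 34 cells in Yoda1 libraries and 5 and 17 in Control libraries. Trac, the constant region of the receptor alpha chain, was found in 27 of the 62 cells (43.5%) and in 0 cells of the other two subsets. It stood at 265.6 and 128.4 CPM in the Yoda1 and at 383 and 156.2 CPM in the Control libraries. Trdc, the constant region of the delta chain, was found in 25.8% of the CD3 subset, and its level varied widely, at 33.2 and 181.6 CPM in the Yoda1 and at 766 and 269.8 CPM in the Control libraries.

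Of the co-receptor genes, Cd8b1 stood at 99.6 and 150.6 CPM in the CD3 subset of the Yoda1 libraries and at 63.8 and 56.8 CPM in that of the Control libraries, and was at 0 in the other two subsets. Cd8a stood at 133 and 57.6 CPM in Yoda1 and 63.8 and 28.4 CPM in Control libraries. Over all gated cells, Cd8a had 4 and 14 UMIs in the Yoda1 and 1 and 2 UMIs in the Control libraries. The 63.8 CPM of Cd8a and of Cd8b1 in Control library 1 was thus 1 UMI each, so the co-receptor levels rest on few molecules. Cd4, the helper cell co-receptor, was nearly absent, at 0 and 2.61 CPM over all gated cells of the Yoda1 and 0 and 3.28 CPM of the Control libraries. NK genes were also present in the CD3 subset. Ccl5, a chemokine of cytotoxic and memory cells, stood at 3619 and 2117 CPM in the Yoda1 and at 7788 and 7171 CPM in the Control libraries. Klrd1, the CD94 chain of NK receptors, was found in 53.2% of the CD3 subset and in 53.7% of the NK receptor subset. Kit, which the sort selects for, was found in 9 of the 62 cells of the CD3 subset, with 0 in Yoda1 library 1 and 0 in Control library 1.

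The NK receptor subset lacked Trac in all 67 cells and carried cytotoxic genes. The summed NK and cytotoxic list outside the gate was higher in the CD3 subset in every library. It stood there at 6840 and 3715 CPM in Yoda1 and 11240 and 11880 CPM in Control libraries. In the NK receptor subset it stood at 5915 and 2784 CPM in Yoda1 and 4042 and 8439 CPM in Control libraries. A large part of the sum in the CD3 subset was Ccl5 alone, at 2117 to 7788 CPM over the libraries. Ccl5 ran from 676.5 to 3437 CPM in the NK receptor subset, and the order of the sums without Ccl5 was not tested. Gzma, the serine protease granzyme A, stood at 243.9 and 522 CPM in the NK receptor subset of the Yoda1 libraries. In that of the Control libraries it stood at 1258 and 1638 CPM, without overlap. Klre1, an NK receptor chain, stood at 213.4 and 35.8 CPM in Yoda1 and at 190.8 and 285.3 CPM in Control libraries, and Klrk1, which encodes NKG2D, at 609.8 and 133 CPM in Yoda1 and at 364.3 and 404.9 CPM in Control libraries. Xcl1, a chemokine of NK and CD8 cells, varied widely, at 792.8 and 76.8 CPM in Yoda1 and at 130.1 and 156.5 CPM in Control libraries. Eomes, a transcription factor of NK and memory T cells, was found in 25.4% of the subset, against 17.7% of the CD3 subset and 4.92% of the third subset. By level the order was the reverse for the first pair. Eomes had a mean of 99.9 CPM (39.9 to 132.8) in the CD3 subset and 54.1 CPM (20.5 to 87.4) in the NK receptor subset. The subset of Yoda1 library 1 held only 5 cells, and in it Cd74, the invariant chain of MHC class II, stood at 2866 CPM, against 56.3 CPM in Yoda1 library 2 and 112.7 and 36.8 CPM in the Control libraries.

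The third subset, the largest, was set apart by several genes of innate lymphoid and early T precursors. Tcf7 was found in 73.8% of its cells, against 38.7% of the CD3 subset and 34.3% of the NK receptor subset. Zbtb16, which encodes PLZF, was found in 73 of 122 cells (59.8%), against 3 of 62 and 8 of 67. Tox, a regulator needed for innate lymphoid and CD4 cell development, was found in 83 cells (68.0%), and Rora, a nuclear receptor of group 2 cells, in 84 (68.9%). Trbc1 was found in 77.9% and Bcl11b, which commits cells to the T lineage and is also used by group 2 innate lymphoid cells, in 39.3%. Bcl11b did not set the third subset apart from the CD3 subset, where it was found in 35.5%, against 5.97% of the NK receptor subset. Id2 did not set the third subset apart either, at 58.2% of its cells against 56.5% of the CD3 subset and 76.1% of the NK receptor subset. Trac was found in 0 of the 122 cells and Trdc in 16.4%. Cells of the third subset were deeper than those of the CD3 subset, with library medians of 6560.5 to 9104 against 2729 to 4326.5 UMIs. The part of depth in these detection shares was not tested.

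By level, Zbtb16 stood at 277 and 133 CPM in the third subset of the Yoda1 and at 511 and 283 CPM in that of the Control libraries. Tcf7 stood at 657.3 and 272.1 CPM in the Yoda1 and at 844.9 and 810.5 CPM in the Control libraries, the lowest being Yoda1 library 2. The same library was lowest for Id2, the inhibitor of E proteins on which innate lymphoid cells depend, at 565 and 148 CPM in Yoda1 against 706 and 944 CPM in Control libraries. It was highest for Dntt, the terminal transferase of early lymphoid progenitors, at 242.2 and 998.6 CPM in Yoda1 against 255.3 and 208.1 CPM in Control libraries, and for Ly6d, a marker of lymphoid progenitors, at 75 and 255 CPM in Yoda1 against 46.4 and 55.9 CPM in Control libraries. Effector cytokine genes of group 2 cells were not seen to match these regulators, since Il13 had 0 UMIs in gated cells of all 4 libraries. Calca and Ramp3 also had 0 UMIs, and Il5, Il4 and Areg were too low to be tested. Bcas1, Fgf3, Rxrg, Hes1 and Tnni1 were among the 12 genes with the largest excess over the other two subsets, a description of genes picked from these same cells.

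**Figure D2:**
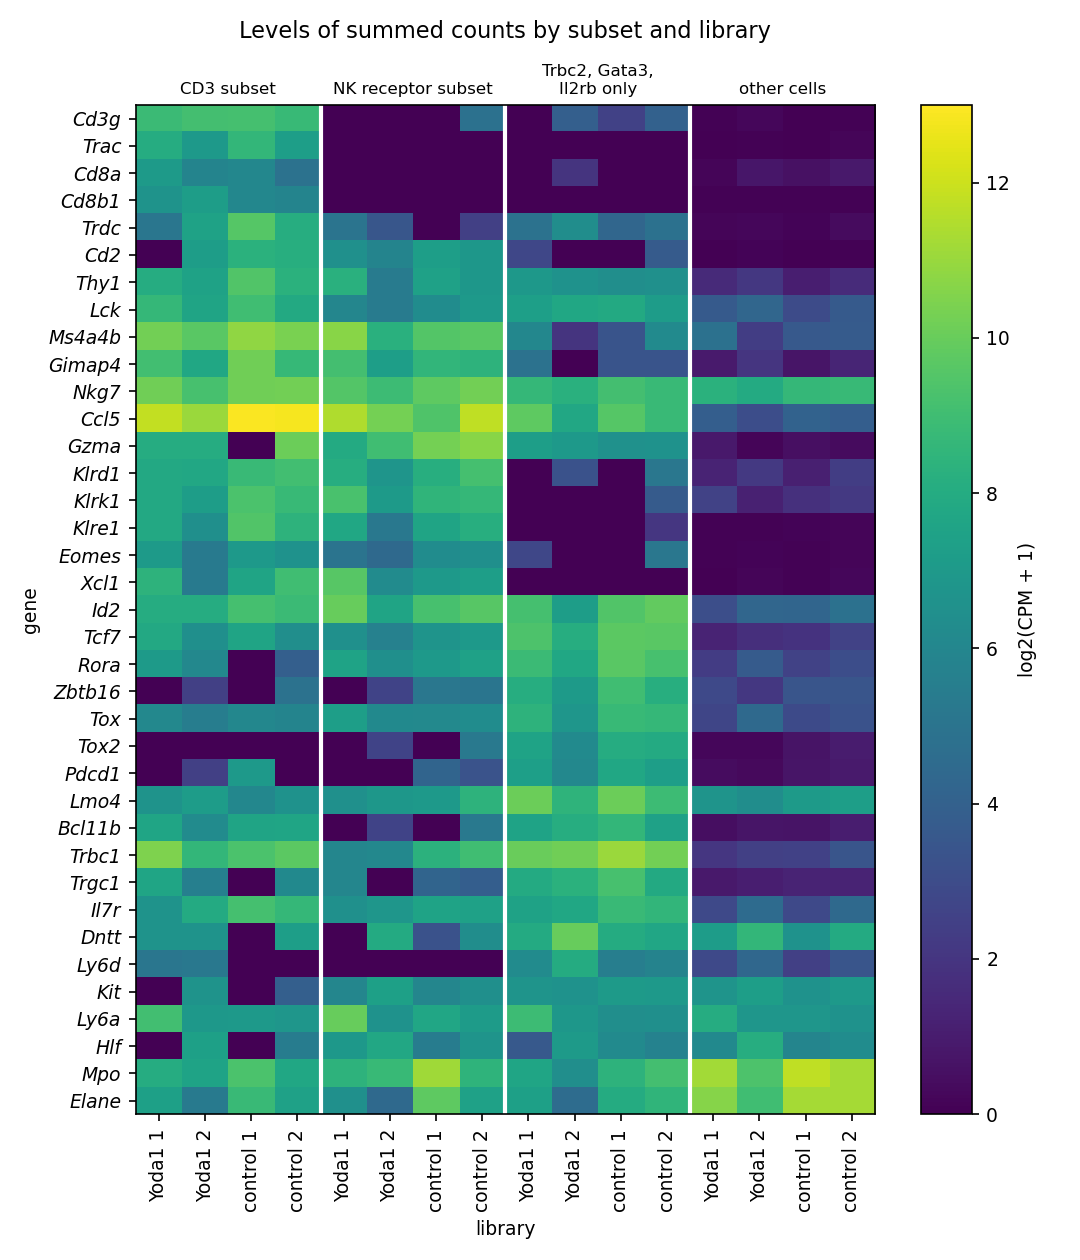
Levels of selected genes (colour, log2 of CPM plus 1) in the summed counts of the CD3 subset, the NK receptor subset, the third subset (Trbc2, Gata3, Il2rb only) and the other cells, with Yoda1 libraries left of Control libraries in each block. Cd3g and Trac are high in the CD3 subset, Klrd1 in the CD3 subset and the NK receptor subset, and Zbtb16 and Tcf7 in the third subset.

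Against the other cells of the same libraries, gated cells differed widely. Since cells were chosen by lymphoid genes, genes that go with those 7 were bound to differ, and the following values describe the cells rather than test a treatment. In edgeR's quasi-likelihood test on summed counts with library as a block, 959 of 15568 genes (6.16%) were called higher and 1277 (8.2%) lower at a Benjamini-Hochberg adjusted p under 0.05. That makes 2236 called (14.4%), with a median log2 fold change of -0.09 over all genes. The test shares estimates of spread between genes, so its errors and p-values can understate a single gene's spread between libraries. The split depended on the tool: DESeq2 called 859 higher and 500 lower, limma-voom 2007 higher and 462 lower, and edgeR with RLE scaling 1072 higher and 982 lower. Without Control library 2 the total was 1153, without Control library 1 it was 1417, and without Yoda1 library 2 it was 2745.

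Outside the gate genes, 20 of the 21 T cell genes were called higher and Cd4 was not. Trbc1 stood at 951.9 and 656 CPM in gated cells of the Yoda1 and at 1452 and 925 CPM in those of the Control libraries, against 3.17, 4.53, 4.65 and 9.59 CPM in the other cells of the same 4 libraries. Bcl11b stood at 160.8 and 146.1 CPM in the Yoda1 and at 248.3 and 127.9 CPM in the Control libraries, against 0.39 to 1.06 CPM in the other cells, a log2 fold change of 7.85 ± 0.22 (SE; adjusted p = 9.45e-269). Cd3g had a log2 fold change of 10.17 ± 0.48 (adjusted p = 1.42e-97). Lck, the kinase that starts T cell receptor signalling, stood at 177.7 and 163 CPM in the Yoda1 and at 196.3 and 147.6 CPM in the Control libraries, against 6.74 to 18.9 CPM in other cells (log2 fold change 3.71 ± 0.16). Thy1 had a log2 fold change of 5.90 ± 0.23.

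Of the 9 gamma-delta T cell genes, 8 were tested and 7 were called higher, Sox13 being the exception. Trgc4 stood at 186.2 and 129.1 CPM in gated cells of the Yoda1 and at 254.1 and 183.7 CPM in those of the Control libraries, against 0.263 to 1.11 CPM in other cells. It was highest in the third subset (207.6 to 357.5 CPM), which had Trdc at 18.6 to 81.0 CPM.

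All 14 of the NK and cytotoxic genes that were tested, of 16, were called higher, with a median log2 fold change of 7.93. Most were nearly silent in the other cells, so that their fitted fold changes depended on a handful of UMIs there. Gzma stood at 181.9 and 267.4 CPM in gated cells of the Yoda1 and at 476.4 and 761 CPM in those of the Control libraries, against 0.145 to 0.825 CPM in other cells. Klra7, an inhibitory Ly49 receptor, and Sh2d1a, the adaptor SAP of T and NK cells, had the largest fold changes of all genes named by the rule. Klra7 stood at 11.6 to 50.8 CPM in gated cells and at 0 in the other cells of 2 libraries, and Sh2d1a at 24.8 to 65.6 CPM in gated cells, against 0.00907 to 0.0334 CPM. Cd2, Klrc2, Xcl1, Klre1, Samd3, Klrc1, Trac, Klrb1b, Cxcr6, Eomes and Rasgrp1 made up the rest of the 15 genes with the largest increases. Nkg7, in contrast, was only 0.70 ± 0.10 higher on the log2 scale (adjusted p = 5.90e-10).

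Of the 15 genes of innate lymphoid precursors, 14 were tested and 13 were called higher. Id2 stood at 588.1 and 191.7 CPM in gated cells of the Yoda1 and at 661.1 and 836.4 CPM in those of the Control libraries, against 7.63 to 27.5 CPM in other cells (log2 fold change 4.81 ± 0.13; adjusted p = 3.31e-289). With a library left out, the Id2 log2 fold change ran from 4.375 to 5.221, wider than that error. Zbtb16 stood at 203.1 and 62.6 CPM in gated cells of the Yoda1 and at 329.1 and 164 CPM in those of the Control libraries, against 3.24 to 9.67 CPM in other cells (4.49 ± 0.17). Pdcd1, the receptor PD-1 that innate lymphoid precursors carry, stood at 118.5 and 31.3 CPM in the Yoda1 and at 144.4 and 85.3 CPM in the Control libraries, against 0.267 to 0.905 CPM. In all of these genes Yoda1 library 2 had the lowest level of the 4 gated sums. Its gated cells also had the lowest share with at least 10 markers outside the gate (74.1%). The part of that share in these levels was not tested.

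Of the 17 group 2 genes, 10 were tested, 8 were called higher and Ramp1 was lower. Il7r, the receptor for IL-7, stood at 156.5 and 199.6 CPM in gated cells of the Yoda1 and at 366.7 and 308.3 CPM in those of the Control libraries, against 6.34 to 22.4 CPM in other cells (log2 fold change 4.19 ± 0.15). Arg1, arginase 1, stood at 71.9 and 7.83 CPM in the Yoda1 and at 40.4 and 19.7 CPM in the Control libraries, against 0.134 to 0.305 CPM. Il1rl1, the IL-33 receptor that also marks mast cells, was called by a small margin (1.06 ± 0.36; adjusted p = 0.0285), and its log2 fold change was -0.89 in cells with at least 3 gate genes, -1.04 in a gate without Gata3 and -0.32 without Yoda1 library 2.

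All 8 Gimap genes, small GTPases of lymphocyte survival, were called higher. Gimap4 stood at 165 and 103 CPM in gated cells of the Yoda1 and at 181.9 and 173.8 CPM in those of the Control libraries, against 0.672 to 3.01 CPM in other cells. Of 14 trafficking genes tested 13 were higher, among them the gut-homing receptor gene Ccr9 (3.35 ± 0.31) and Itgb7 (1.92 ± 0.16). Of 18 receptor signalling genes, 14 were called higher and 1 lower. Bcl2, the survival factor downstream of IL-7, stood at 829.2 and 310.4 CPM in gated cells of the Yoda1 and at 765.1 and 764.2 CPM in those of the Control libraries, against 92.4 to 118.1 CPM in other cells (2.40 ± 0.11).

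Lists of other lineages ran the other way. Of 12 neutrophil and myeloid genes tested 10 were lower (median log2 fold change -2.47), and of 11 megakaryocyte and erythroid genes 10 were lower (median -2.36). Mpo, myeloperoxidase, stood at 228.5 and 202.2 CPM in gated cells of the Yoda1 and at 1002 and 444.4 CPM in those of the Control libraries, against 2322, 658.3, 3430 and 2441 CPM in other cells. It was detected in 51.6% of the CD3 subset, 65.7% of the NK receptor subset and 64.8% of the third subset. Igkc, the immunoglobulin kappa constant region, had the largest decrease of the genes named (-5.29 ± 0.28), though it was at 0.244 CPM in the other cells of Control library 1, where gated cells had 0, with the myeloid genes Prg2, Mcpt8, Prss34, F13a1, Hp and S100a8, the erythroid genes Ermap and Car1 and the metallothionein gene Mt2 completing the 10 largest. Of the 10 stem cell genes 6 were lower and 1 higher. Hlf stood at 25.4 and 165.6 CPM in gated cells of the Yoda1 and at 60.6 and 70.5 CPM in those of the Control libraries, against 72.1, 273.2, 58.9 and 78.4 CPM in other cells (-0.59 ± 0.16; adjusted p = 0.00214).

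The 2 surface genes of the sort were compared as well. Kit was detected in 40.2% of gated cells and 65.1% of all kept cells, and Ly6a, which encodes Sca-1, in 41.4% and 55.0%. Kit stood at 84.6 and 116.1 CPM in gated cells of the Yoda1 and at 103.9 and 100 CPM in those of the Control libraries, against 105.1, 156.4, 98.4 and 129.9 CPM in other cells (log2 fold change -0.39 ± 0.15; adjusted p = 0.0469). Ly6a stood at 558.5 and 112.2 CPM in gated cells of the Yoda1 and at 127 and 108.2 CPM in those of the Control libraries, against 261.2, 113.6, 112.7 and 97.9 CPM in other cells, and was not called (0.26 ± 0.13; adjusted p = 0.192). Without Yoda1 library 1, its log2 fold change was -0.05.

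Whether 2 weeks of Yoda1 changed the number of these cells was asked by their share of the kept cells. Gated cells made up 33 of 9122 cells in Yoda1 library 1 (0.362%, exact binomial 95% interval 0.249 to 0.508) and 85 of 9756 in Yoda1 library 2 (0.871%, 0.697 to 1.08). They made up 45 of 7620 cells in Control library 1 (0.591%, 0.431 to 0.789) and 88 of 7822 in Control library 2 (1.13%, 0.903 to 1.38). The intervals cover counting error only. The groups overlapped, and the libraries differed more within each group than the groups did. The mean was 0.617 ± 0.360% in Yoda1 and 0.858 ± 0.378% in Control libraries (SD, n = 2 each), a difference of -0.241 percentage points (exact permutation test, two-sided p = 0.667, where the smallest possible is 0.333). After each cell was thinned to 3000 UMIs, the shares were 0.234% and 0.355% in Yoda1 and 0.338% and 0.515% in Control libraries. Without Yoda1 library 1 the difference was 0.0135 percentage points and without Control library 2 it was 0.026, so its sign rested on single libraries.

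**Figure D3:**
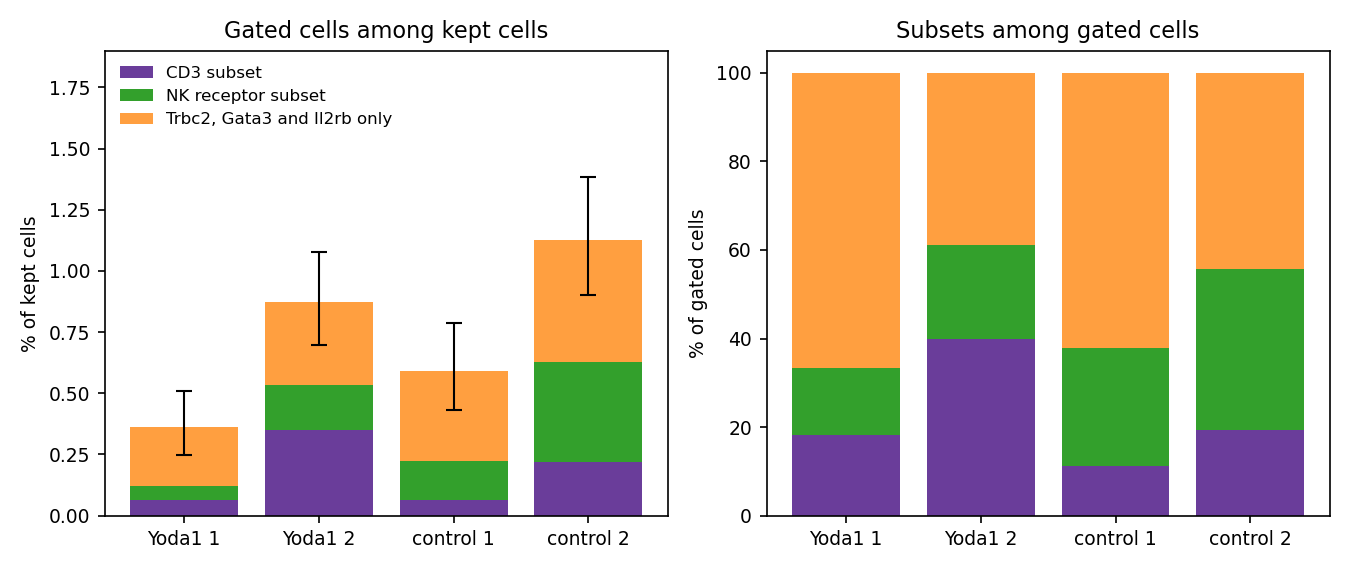
Left, gated cells as a percentage of kept cells in each library, stacked by subset, with exact 95% binomial intervals for the whole bar; right, the subsets as a percentage of gated cells, Yoda1 left of Control in both. The 2 Yoda1 libraries (0.362% and 0.871%) overlap the 2 Control libraries (0.591% and 1.13%).

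The 3 subsets were also compared separately. The third subset made up 0.241% and 0.338% of kept cells in the Yoda1 libraries and 0.367% and 0.499% in the Control libraries, which did not overlap (exact permutation p = 0.333, the smallest possible). The NK receptor subset made up 0.0548% and 0.185% in the Yoda1 and 0.158% and 0.409% in the Control libraries (p = 0.667, exact permutation test). The CD3 subset made up 0.0658% and 0.349% in the Yoda1 and 0.0656% and 0.217% in the Control libraries (p = 0.667, exact permutation test), and its difference changed sign without Yoda1 library 2 (-0.0757 percentage points) or Control library 1 (-0.0102).

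Within the gated cells, the NK receptor subset was 15.2% and 21.2% in the Yoda1 and 26.7% and 36.4% in the Control libraries, again without overlap (exact permutation p = 0.333, the smallest possible). The difference was -13.4 percentage points, and -5.78 after thinning, where the groups overlapped. The CD3 subset was 18.2% and 40% of gated cells in the Yoda1 and 11.1% and 19.3% in the Control libraries (p = 0.667), and the third subset 66.7% and 38.8% in the Yoda1 and 62.2% and 44.3% in the Control libraries (p = 1.0, exact permutation tests). Yoda1 library 2 and Control library 2 had more gated cells, and a smaller share of the third subset among them, than the other library of their group. Median depth differed between subsets, at 2729 to 4326.5 UMIs in the CD3 subset, 4048 to 9232 in the NK receptor subset and 6560.5 to 9104 in the third subset, and its part in these shares was tested only by the thinning.

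Within gated cells, no gene passed the test between Yoda1 and Control with the filter on low counts. Of 6653 genes tested, edgeR's quasi-likelihood test called 0 (0%), limma-voom 0 and DESeq2 0. At an unadjusted p under 0.05, edgeR had 152 genes higher and 160 lower, limma-voom 170 and 246, and DESeq2 23 and 22. The groups did not overlap in 869 genes higher in Yoda1 (13.1%) and 1235 lower (18.6%), and the median log2 fold change was 0.01. With no filter on low counts, edgeR called 39 of 16549 genes, among them all 10 genes named in the next paragraphs for their small p, and also Klre1, Klrd1, Cd3g, Id2, Isg15, Elane, Dntt and Ly6a. The largest differences are given below as values. Without Yoda1 library 1, 82 genes were called, without Yoda1 library 2 there were 40, without Control library 1 there were 23 and without Control library 2 there was 1.

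Among the genes with the smallest p that were higher in Yoda1, Myl10, a myosin light chain, stood at 114.2 and 112.2 CPM in Yoda1 and 43.3 and 39.4 CPM in Control libraries. Its log2 fold change was 1.50 ± 0.29 (SE; adjusted p = 0.326). Ly6d stood at 59.2 and 125.2 CPM in Yoda1 against 28.9 and 29.5 CPM in Control libraries, a log2 fold change of 1.82 ± 0.37. Ccr9 stood at 63.5 and 80.9 CPM in Yoda1 against 31.8 and 19.7 CPM in Control libraries (log2 fold change 1.65 ± 0.36; adjusted p = 0.386). Cenpe, a kinesin of chromosome movement in mitosis, stood at 97.3 and 91.3 CPM in Yoda1 and at 28.9 and 36.1 CPM in Control libraries (1.53 ± 0.31). Hmgn2, a nucleosome-binding protein, stood at 516 and 522 CPM in Yoda1 and at 185 and 290 CPM in Control libraries. In each of these 5 genes, both Yoda1 libraries were above both Control libraries, and none passed the adjusted threshold with the filter on low counts.

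The 5 genes with the smallest p in the other direction were Ms4a3, Irf8, Gzma, Mpo and Tiam1. Ms4a3, a marker of granulocyte and monocyte progenitors, stood at 4.23 and 13 CPM in Yoda1 and at 78 and 65.6 CPM in Control libraries, a log2 fold change of -2.66 ± 0.43 (adjusted p = 0.326). Irf8, a regulator of monocyte and dendritic cell fate, stood at 29.6 and 35.2 CPM in Yoda1 and at 115.5 and 103.3 CPM in Control libraries (-1.65 ± 0.30). Gzma stood at 181.9 and 267.4 CPM in Yoda1 and at 476.4 and 761 CPM in Control libraries (-1.39 ± 0.27). Tiam1, an activator of the GTPase Rac, stood at 29.6 and 23.5 CPM in Yoda1 and at 89.5 and 75.4 CPM in Control libraries. The Gzma UMIs came from 4 and 13 cells in the Yoda1 and from 5 and 22 cells in the Control libraries.

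**Figure D4:**
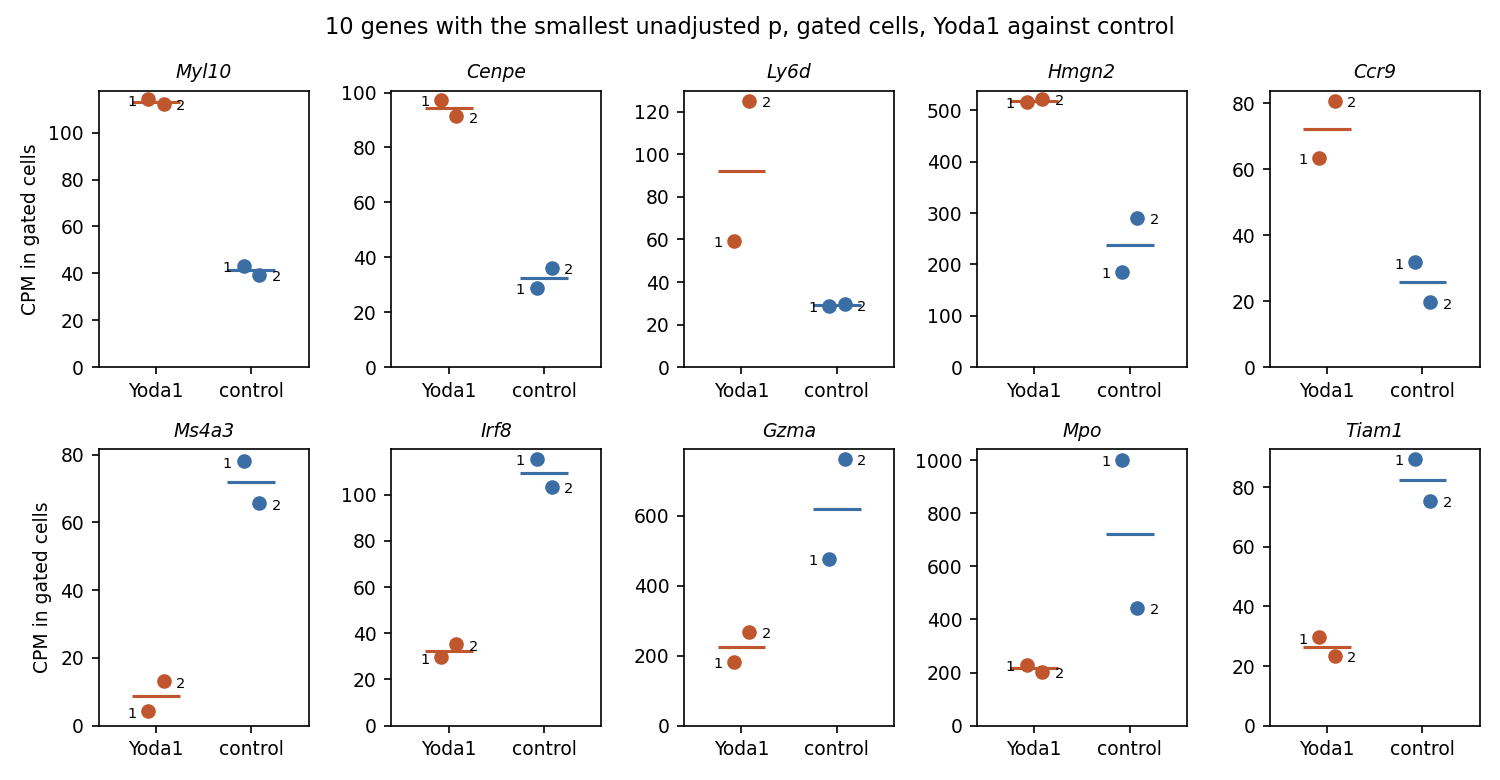
CPM in gated cells (y axis, linear, from 0) of the 5 higher and 5 lower genes of smallest p, a point for each numbered library and a line for the group mean, Yoda1 left of Control. Both Yoda1 libraries lie above both Control libraries for Myl10, Cenpe, Ly6d, Hmgn2 and Ccr9, and below them for Ms4a3, Irf8, Gzma, Mpo and Tiam1.

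By role, genes of the cytotoxic programme lay below 0 in the comparison of Yoda1 with Control. All 9 NK genes tested did so, 6 of them without overlap, with a median log2 fold change of -0.91 beside 0.01 over all genes and 18.6% of all genes lower without overlap. None was called. Klre1 stood at 59.2 and 35.2 CPM in Yoda1 and at 95.3 and 142.7 CPM in Control libraries (-1.46 ± 0.35; adjusted p = 0.567). Klrd1 stood at 67.7 and 96.5 CPM in Yoda1 and at 115.5 and 285.4 CPM in Control libraries, and Ccl5, which overlapped, at 1489 and 1037 CPM in Yoda1 and at 1048 and 2288 CPM in Control libraries. The summed level of the NK list also overlapped, at 2754 and 2104 CPM in Yoda1 and 2737 and 4966 CPM in Control libraries (exact permutation p = 0.667). The smaller share of the NK receptor subset in the Yoda1 libraries moved with these values, and its part was not tested.

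Cd3g stood at 59.2 and 172.2 CPM in Yoda1 and at 28.9 and 67.2 CPM in Control libraries (log2 fold change 1.36 ± 0.45; adjusted p = 0.9998), which overlapped. Within the CD3 subset its levels, given above, overlapped as well. The CD3 subset made up 18.2% and 40% of gated cells in the Yoda1 and 11.1% and 19.3% in the Control libraries, and the part of that share in the level over all gated cells was not tested. Cd247, the CD3 zeta chain, stood at 25.4 and 23.5 CPM in the Yoda1 and 40.4 and 21.3 CPM in the Control libraries, which overlapped. Trac stood at 33.9 and 37.8 CPM in Yoda1 and at 17.3 and 18.0 CPM in Control libraries. Of the gate genes, given without a test, Cd3e stood at 55.0 and 62.6 CPM in Yoda1 and 14.4 and 26.2 CPM in Control libraries, and Cd3d at 84.6 and 127.8 CPM in Yoda1 and 37.5 and 64.0 CPM in Control libraries. The T cell list outside the gate was divided, with 7 of 15 tested genes above 0, a median of -0.12, and no call. Lef1, a partner of TCF-1, was among the lower genes, at 29.6 and 15.7 CPM in Yoda1 and 40.4 and 49.2 CPM in Control libraries.

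Of 11 genes of innate lymphoid precursors tested, 9 lay below 0, 3 of them without overlap, and 2 lay above 0, both without overlap, beside 18.6% lower and 13.1% higher without overlap among all genes. The median log2 fold change was -0.69, with no call. Il18r1, a receptor chain for IL-18, stood at 76.2 and 58.7 CPM in Yoda1 and at 129.9 and 154.2 CPM in Control libraries (-1.11 ± 0.28; adjusted p = 0.577). Id2 stood at 588.1 and 191.7 CPM in Yoda1 and at 661.1 and 836.4 CPM in Control libraries, with a log2 fold change of -0.97 overall and of -0.28 when Yoda1 library 2 was left out. Tcf7 and Tox turned positive without that library, at 0.08 and 0.12. Ltb, which encodes lymphotoxin beta, was higher in both Yoda1 libraries, at 440 and 331.3 CPM against 248.3 and 278.8 CPM in Control libraries (0.57 ± 0.23; adjusted p = 0.9998). Of 7 group 2 genes tested 4 lay above 0 and 3 below, and Il7r was lower, at 156.5 and 199.6 CPM in Yoda1 and 366.7 and 308.3 CPM in Control libraries (-0.84 ± 0.23; adjusted p = 0.768).

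Cell cycle genes lay above 0. All 16 genes of the G2/M phase had a positive log2 fold change, 14 of them without overlap beside 13.1% of all genes higher without overlap, with a median of 0.77, and none was called. Cenpf stood at 215.8 and 228.2 CPM in Yoda1 and at 103.9 and 134.5 CPM in Control libraries (0.93 ± 0.24; adjusted p = 0.592). Top2a, the topoisomerase of dividing cells, stood at 503.5 and 525.6 CPM in Yoda1 and at 242.5 and 355.9 CPM in Control libraries. Summed over the list, the level was 2374 and 2542 CPM in gated cells of the Yoda1 and 1181 and 1771 CPM in those of the Control libraries (exact permutation p = 0.333, the smallest possible). In the other cells it was 2338 and 1931 CPM in the Yoda1 and 2236 and 2066 CPM in the Control libraries, which overlapped.

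The G2/M sum came from few cells. The 3 richest cells held 67.0% and 31.0% of its UMIs in the Yoda1 and 78.7% and 34.9% in the Control libraries. Cells with at least 5 UMIs of the list were 10 of 33 (30.3%) and 29 of 85 (34.1%) in the Yoda1 and 5 of 45 (11.1%) and 21 of 88 (23.9%) in the Control libraries. Without the richest cell of each library the sums were 1729 and 2330 CPM in Yoda1 and 810 and 1589 CPM in Control libraries, still without overlap. By subset, the third had 2272 and 3436 CPM in the Yoda1 against 357.5 and 1633 CPM in the Control libraries, and the CD3 subset had 3187 and 1435 CPM in the Yoda1 against 127.7 and 1022 CPM in the Control libraries, neither with overlap. The 127.7 CPM came from 5 cells in which 14 of the 16 genes had 0 UMIs, so it lay near the floor. The NK receptor subset had 2165 and 2241 CPM in the Yoda1 and 2862 and 2218 CPM in the Control libraries. The median was 0.19, with 9 of 12 tested genes above 0, in cells with at least 3 gate genes. Of 15 S phase genes, 13 lay above 0 (median 0.35), 6 of them without overlap beside 13.1% of all genes.

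**Figure D5:**
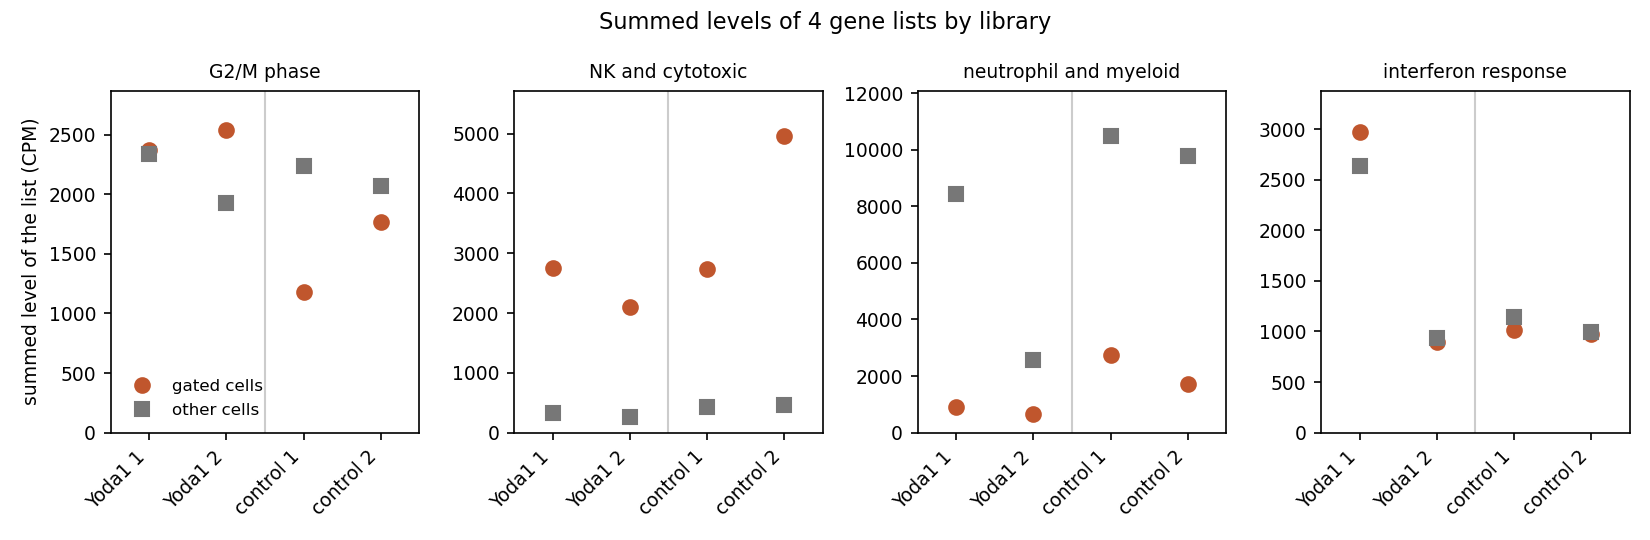
Summed CPM of the G2/M, NK and cytotoxic, neutrophil and myeloid, and interferon response lists (y axis) in gated cells (circles) and other cells (squares), for each library, Yoda1 left of Control. In gated cells the groups do not overlap for the G2/M and the myeloid lists, and they overlap for the other two.

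Markers of myeloid cells were at lower levels in gated cells of both Yoda1 libraries. All 7 myeloid genes tested lay below 0, 6 without overlap beside 18.6% of all genes lower without overlap, with a median of -1.70 and none called. Elane, neutrophil elastase, stood at 156.5 and 27.4 CPM in Yoda1 and at 467.7 and 272.2 CPM in Control libraries. The summed list was 922 and 647 CPM in gated cells of the Yoda1 and 2757 and 1707 CPM in those of the Control libraries (exact permutation p = 0.333, the smallest possible). It was 8423 and 2580 CPM in the other cells of the Yoda1 and 10500 and 9761 CPM in those of the Control libraries, so the same order was seen outside the gate. A single gated cell held 509 of the 955 list UMIs in Control library 1, and another 427 of 1041 in Control library 2. Without the richest cell of each library the sums were 910 and 598 CPM in Yoda1 and 1407 and 1052 CPM in Control libraries.

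Interferon genes rested on Yoda1 library 1. Of 17 tested, 15 lay above 0, with a median of 0.67 that was -0.32 without Yoda1 library 1 and 1.71 without Yoda1 library 2. Isg15, a ubiquitin-like interferon product, stood at 355.4 and 33.9 CPM in Yoda1 and at 46.2 and 21.3 CPM in Control libraries. The other cells of Yoda1 library 1 had the same excess, with Isg15 at 356.7 and 40.4 CPM in Yoda1 and 87.2 and 47.6 CPM in Control libraries. Ly6a followed this pattern too, at 558.5 CPM in gated cells of Yoda1 library 1 and 108.2 to 127 CPM in those of the other 3 libraries.

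Genes of calcium entry, close to the agonist's target, gave no call. Piezo1, the channel that Yoda1 opens, stood at 8.46 and 19.6 CPM in gated cells of the Yoda1 and at 37.5 and 23.0 CPM in those of the Control libraries (log2 fold change -0.76 ± 0.52; adjusted p = 0.9998), against 20.1, 14.5, 25 and 17.9 CPM in other cells. An agonist need not change the RNA of its target, so Piezo1 does not check the labels. Of 12 calcium entry and NFAT genes tested, 4 lay above 0 and 8 below (median -0.07), with 1 higher and 4 lower without overlap, beside 13.1% higher and 18.6% lower among all genes. The 4 lower ones were Piezo1, Stim2, Orai2 and Nfatc1, and the higher one was Orai1. Of 9 immediate early genes, 3 lay above 0 (median -0.08), with no call. Orai1, the pore of store-operated calcium entry, stood at 50.8 and 75.7 CPM in Yoda1 and at 37.5 and 45.9 CPM in Control libraries (0.70 ± 0.32; adjusted p = 0.9998). Lymphoid progenitor genes lay above 0 in 6 of 8, with Dntt at 190.4 and 542.6 CPM in Yoda1 against 161.7 and 157.4 CPM in Control libraries.

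Whether the difference between Yoda1 and Control in gated cells departed from that in the other cells was tested by an interaction term over both sets. edgeR called 17 of 16863 genes (0.101%), 10 with a higher (0.0593%) and 7 with a lower (0.0415%) difference in gated cells. The levels of all 17 in gated and in other cells are given in the closing section. Gzma, Rora, Tox, Ctsw and Gimap5 were among the lower ones and Cenpe and Cks2 among the higher. The count was 3 without Control library 1, 9 without Control library 2 and 164 without Yoda1 library 1.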

How the data were processed

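Single-cell RNA-seq matrices of 4 LSK libraries were used as deposited. Their values are raw UMI counts per gene and cell, filtered for cells with Cell Ranger 7.1.0, per the file headers. GRCm38 (mm10) and Seurat 4.3.0 are listed, per the submitters' processing notes. 10x Genomics and a Singleron microwell chip both appear in the labels, so the capture platform is uncertain, and whether intronic reads were counted is not given in the sources used here. Of 55357 gene IDs, 52081 (94.1%) matched the GRCm38 annotation used for positions.

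Barcodes were kept with at least 500 genes, 1000 UMIs and at most 10% mitochondrial UMIs. No doublet caller was run, and an alternative left out cells above the 90th percentile of UMIs. Kept counts were summed per library and set of cells. Sums were tested with edgeR 4.0.16 (TMM scaling, quasi-likelihood test, R 4.3.3) after its filter on low counts, adjusted by the Benjamini-Hochberg method over all genes tested. Shares were compared by exact permutation of libraries. Errors of log2 fold changes were derived from the F statistic. Yoda1 and Control gated sums were compared without a replicate block, and gated and other cells with library as a block. In simulated data, the Yoda1 and Control comparison recovered 97.2% of 4-fold and 37.6% of 2-fold changes over 6267 genes. The simulated spread depended only on a gene's level, and only well-expressed genes were changed. Genes that vary more between real libraries were not covered, so these shares do not tell how many real changes were missed. A test of treatment within each subset was not run, because no subset had 50 cells in every library.

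Alternatives were stricter cell filters, 3 or more gate genes, a gate without Gata3, thinning to 3000 UMIs, DESeq2 1.42.0, limma-voom (limma 3.58.1), RLE scaling, no filter on low counts, a replicate block, cells of 5000 to 20000 UMIs, and each library left out. The sums without the richest cell were added after seeing the data. Genes named were the gate genes, Id2, Piezo1, Kit and Ly6a, the largest log2 fold changes among called genes at 10 CPM or more whose libraries did not overlap (15 higher and 10 lower against other cells), or, where none was called, the 5 with the smallest p in each direction, and members of the lymphoid lists. For other lists, those with the smallest p were eligible. Isolated others, such as Bcl2, Arg1, Cd74, Cd8a and the genes leading a subset, were named after their values were seen or from the lists. The members and lists were chosen with earlier results of these data known.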

Additional observations from a re-analysis of the deposited data

Results flagged for a closer look

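The genes below were singled out because their difference between Yoda1 and Control was not the same in gated cells as in the other cells, by the edgeR interaction test over 16863 genes. Each value is the interaction on the log2 scale with its SE, and levels are CPM. A positive value can come from a higher level in gated cells of the Yoda1 libraries, from a lower level in their other cells, or from both, so both levels are given.

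Cd74 had 2.80 ± 0.32 (adjusted p = 1.20e-13). It stood at 634.6 and 61.3 CPM in gated cells of the Yoda1 and 43.3 and 103.3 CPM in those of the Control libraries, which overlapped, and at 45.7 and 234.9 CPM in other cells of the Yoda1 and 193.2 and 251.8 CPM in those of the Control libraries. In Yoda1 library 1, 8 gated cells held 150 Cd74 UMIs and 3 of them held 122. H2-Eb1, an MHC class II chain, had 2.43 ± 0.48. It stood at 122.7 and 18.3 CPM in gated cells of the Yoda1 and 14.4 and 14.8 CPM in those of the Control libraries, and at 12.9 and 66.7 CPM in other cells of the Yoda1 and 40.7 and 66.7 CPM in those of the Control libraries.

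Il1rl1 had 3.79 ± 0.72. It stood at 21.2 and 23.5 CPM in gated cells of the Yoda1 and 2.89 and 8.2 CPM in those of the Control libraries, and at 6.75 and 2.09 CPM in other cells of the Yoda1 and 15.1 and 9.68 CPM in those of the Control libraries. All 5 of its UMIs in gated cells of Yoda1 library 1 came from 1 cell. Ms4a2 had 3.70 ± 0.83. It stood at 4.23 and 19.6 CPM in gated cells of the Yoda1 and 0 and 4.92 CPM in those of the Control libraries, which overlapped, and at 15 and 11.9 CPM in other cells of the Yoda1 and 24.5 and 34.6 CPM in those of the Control libraries. All 15 of its UMIs in gated cells of Yoda1 library 2 came from 1 cell.

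Cpa3 had 1.27 ± 0.27. Its levels overlapped in gated cells, at 308.9 and 183.9 CPM in the Yoda1 and 257 and 219.8 CPM in the Control libraries, and it was lower in the other cells, at 71.4 and 46.8 CPM in the Yoda1 and 117 and 144.9 CPM in the Control libraries. Rgcc, with 1.97 ± 0.40, overlapped in gated cells too, at 8.46 and 67.8 CPM in the Yoda1 and 31.8 and 26.2 CPM in the Control libraries, and stood at 70.1 and 41.2 CPM in other cells of the Yoda1 and 88.7 and 117.5 CPM in those of the Control libraries.

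Cenpe had 1.72 ± 0.36. It stood at 97.3 and 91.3 CPM in gated cells of the Yoda1 and 28.9 and 36.1 CPM in those of the Control libraries, and at 81.8 and 62.8 CPM in other cells of the Yoda1 and 85 and 70.2 CPM in those of the Control libraries. Cks2 had 1.09 ± 0.26. It stood at 304.6 and 336.5 CPM in gated cells of the Yoda1 and 141.5 and 267.3 CPM in those of the Control libraries, and at 366.7 and 293.1 CPM in other cells of the Yoda1 and 390.3 and 428.1 CPM in those of the Control libraries.

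Cox6b2 had 1.68 ± 0.38. It stood at 76.2 and 60 CPM in gated cells of the Yoda1 and 49.1 and 19.7 CPM in those of the Control libraries, and at 94.7 and 59.7 CPM in other cells of the Yoda1 and 120.7 and 86.2 CPM in those of the Control libraries. The predicted gene Gm42047 had 1.96 ± 0.46. It stood at 21.2 and 58.7 CPM in gated cells of the Yoda1 and 11.6 and 21.3 CPM in those of the Control libraries, which overlapped by a small margin, and at 31.4 and 30 CPM in other cells of the Yoda1 and 47.5 and 37.8 CPM in those of the Control libraries.

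Ctsw, cathepsin W of cytotoxic cells, had -1.50 ± 0.32. It stood at 139.6 and 105.6 CPM in gated cells of the Yoda1 and 181.9 and 221.4 CPM in those of the Control libraries, and at 5.11 and 11.6 CPM in other cells of the Yoda1 and 3.69 and 5.97 CPM in those of the Control libraries. Gzma had -1.48 ± 0.34, and 0.32 without Yoda1 library 1. It stood at 181.9 and 267.4 CPM in gated cells of the Yoda1 and 476.4 and 761 CPM in those of the Control libraries, and at 0.825 and 0.145 CPM in other cells of the Yoda1 and 0.448 and 0.317 CPM in those of the Control libraries.

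Tox had -1.37 ± 0.29. It stood at 275 and 82.2 CPM in gated cells of the Yoda1 and 291.6 and 246 CPM in those of the Control libraries, which overlapped, and at 5.55 and 21 CPM in other cells of the Yoda1 and 6.58 and 8.85 CPM in those of the Control libraries. Rora had -1.20 ± 0.28. It stood at 380.8 and 139.6 CPM in gated cells of the Yoda1 and 545.7 and 373.9 CPM in those of the Control libraries, which overlapped, and at 3.99 and 12.3 CPM in other cells of the Yoda1 and 4.85 and 7.36 CPM in those of the Control libraries.

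Gimap5 had -1.34 ± 0.31. In gated cells it stood at 118.5 and 110.9 CPM in the Yoda1 and 124.1 and 160.7 CPM in the Control libraries, a log2 ratio of the means of -0.31, and in other cells at 12.9 and 50.9 CPM in the Yoda1 and 11.4 and 17.8 CPM in the Control libraries, a log2 ratio of 1.13. Tmem121 had -1.98 ± 0.42. It stood at 67.7 and 30 CPM in gated cells of the Yoda1 and 112.6 and 68.9 CPM in those of the Control libraries, and at 7.13 and 24.1 CPM in other cells of the Yoda1 and 5.72 and 10.7 CPM in those of the Control libraries. Gem, a small GTPase, had -2.56 ± 0.60. It stood at 8.46 and 13 CPM in gated cells of the Yoda1 and 52 and 39.4 CPM in those of the Control libraries, and at 5.7 and 14.4 CPM in other cells of the Yoda1 and 5.6 and 8.09 CPM in those of the Control libraries.

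Adjusted p-values of the genes other than Cd74 ran between 0.00131 and 0.0285, in edgeR's quasi-likelihood test. Of the 17 genes, 17 were also called with RLE scaling, 6 after thinning to 3000 UMIs, 3 in cells with at least 3 gate genes and 2 in a gate without Gata3.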

How the results depend on the processing

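Signs and sides of the threshold were compared over the alternatives above. The difference in the gated share between Yoda1 and Control ran between -0.5085 and 0.02595 percentage points when 1 library was left out, with 0.0135 without Yoda1 replicate 1. The share of the third subset among gated cells ran between -14.45 and 13.4 (8.425 without Control replicate 1), the CD3 subset among kept cells between -0.07568 and 0.207 (-0.01016 without Control replicate 1), the CD3 subset among gated cells between 2.965 and 24.79, and the NK receptor subset among gated cells between -18.2 and -8.505. The cause was not tested.

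Genes called between Yoda1 and Control in gated cells numbered 0, against 39 with no filter on low counts and 10 with a replicate block, and between 1 and 82 with a library left out. The 10 with the replicate block were Hmgn2, Ly6d, Isg15 and H2ac8, higher, and Ms4a3, Irf8, Gzma, Mpo, Elane and Ctsg, lower. Same-numbered libraries deviated together only weakly in gene levels (correlation 0.128 over 3292 genes). With 2 pairs and few cells, this cannot decide whether equal numbers share a batch. The gated share was higher in library 2 of both groups. The labels do not pair the numbers, so they are not taken as pairs. Genes called between gated and other cells numbered 1387 with at least 3 gate genes, 1443 without Gata3, 1359 by DESeq2 and 1311 with no library block, and between 1153 and 2745 with a library left out. Interaction calls numbered 5 with at least 3 gate genes, 2 without Gata3, 8 after thinning, 29 without cells above the 90th percentile of UMIs, 26 with RLE scaling and 34 in cells of 5000 to 20000 UMIs, and between 3 and 164 with a library left out.

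Among single genes, log2 fold changes with a library left out spanned, between Yoda1 and Control, -1.69 to 0.0791 for Tcf7 and -1.691 to 0.1216 for Tox (both above 0 without Yoda1 replicate 2) and -0.0456 to 2.339 for Ly6a (below 0 without Yoda1 replicate 1). Against other cells they spanned -0.05271 to 0.4059 for Ly6a (below 0 without Yoda1 replicate 1, and -0.1495 in cells of 5000 to 20000 UMIs) and -0.3157 to 1.72 for Il1rl1 (below 0 without Yoda1 replicate 2, and -0.8895 with at least 3 gate genes and -1.04 without Gata3). The Gzma interaction spanned -2.828 to 0.3206 (above 0 without Yoda1 replicate 1). The remaining single-gene values kept their sign: between Yoda1 and Control 166 also kept their side of the threshold and 50 newly passed it, against other cells 567 kept their side, 24 lost it and 1 newly passed, and for the interaction 59 kept their side and 48 lost it.

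With 33 to 88 gated cells in a library, genes under a few CPM were not measurable, and shares of the subsets rest on as few as 5 cells. The test within each subset was not run, for lack of 50 cells in every library.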
